A study of Saccharomyces cerevisiae with 12 samples.

Results

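The constitutive chaperones and chaperonins of budding yeast were examined for the effect of losing ZTA1 (YBR046C), the gene of zeta-crystallin, a quinone oxidoreductase. The members are 37 genes, taken from the platform annotation by name. They encode Hsp90, Hsp70 and Hsp40 proteins, chaperonin subunits, their co-chaperones and the sorting factors BTN2 and CUR1. Each of the 37 had 1 probe, and they are part of 5594 genes measured. The general stress chaperones, such as HSP104, were left out of the list, and the rule for members goes by gene name.

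The H2O2 group was exposed to 10 mM hydrogen peroxide for 30 min, and the untreated group received no peroxide. In either group, strain ∆zta1 was set against its wild type FY834α in 3 pairs of cultures, all grown exponentially in rich YPD medium. Each pair was hybridised on 2 two-colour Agilent arrays with the dyes swapped, giving 12 arrays. All values below are log2 ratios of ∆zta1 over wild type, and a pair is the mean of its 2 arrays. No array set a treated culture against an untreated one, so the effect of peroxide within a strain was not measured. The labels call the 3 pairs biological replicates, and how many clones of the deletion were used is not given in the sources used here.

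ZTA1 itself was negative on every array, between -6.34 and -3.21. Its pair values were -4.96, -4.56 and -4.58 under H2O2 and -5.84, -4.32 and -5.73 in untreated cultures. The sign of the ratios was itself read partly from ZTA1, so these values show only that all arrays have the same direction. They do not check the labels of treatment or replicate. Untreated replicate 2 stood apart in spread, with an SD of 0.161 over all genes against 0.111 to 0.127 in the other 5 pairs. The part of untreated replicate 2 in the results is also given by leaving it out.

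Chaperones bind unfolded or partly folded proteins and release them in cycles of ATP binding and hydrolysis. Hsp70 proteins act early and are driven by J proteins (Hsp40), which stimulate their ATPase, and by exchange factors, which eject ADP. Hsp90 takes over clients that are nearly folded, with co-chaperones setting the pace of its cycle. Chaperonins are closed chambers in which a protein folds alone. Separate sets of these proteins serve the cytosol, the ribosome's exit tunnel, the endoplasmic reticulum and the mitochondrion. Transcripts of several of them, such as HSP82 and SSA1, are targets of the heat shock factor Hsf1.

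None of the 37 transcripts passed the test for a difference between ∆zta1 and wild type. With limma, and p-values adjusted over the whole table by Benjamini and Hochberg's method, a gene passed under 0.05. Of the members, 0 of 37 passed under H2O2, where 0.215% of all genes passed. In untreated cultures 0 of 37 passed, against 0.197% of all genes, and 0 of 37 passed for the mean of both treatments, against 0.286%. The difference between the strain ratios of the treatments, H2O2 minus untreated, gave 0 of 37 members and 0% of all genes. The smallest adjusted p of a member in these 4 comparisons was 0.487, for the mean of CUR1.

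At an unadjusted p under 0.05, members passing numbered 0 under H2O2 (8.29% of all genes), 1 in untreated cultures (3.65%), 0 for the difference (1.27%) and 2 for the mean (9.46%). CUR1 was the member in untreated cultures, and CUR1 and SSZ1 were those for the mean. As shares of the 37 members these were 0%, 2.70%, 0% and 5.41%, in that order. A single gene of the 37 is 2.70%, so no trait of the members is read from these shares. In RNA from whole cultures, fewer cells expressing a gene and less RNA per cell cannot be told apart.

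The mean ratios of the members were small in size. Under H2O2 they ran from -0.068 for KAR2 to 0.069 for STI1, and in untreated cultures from -0.072 for SSA1 to 0.075 for CUR1. The member farthest from 0 in size differed 1.05-fold in either treatment. The SD of the mean ratio over the 37 genes was 0.034 under H2O2 and 0.033 in untreated cultures, against 0.102 and 0.113 over all genes.

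The median member was 0.020 under H2O2 and 0.018 in untreated cultures, where the medians of all genes were -0.0023 and 0.00052. Of the 37 members, 24 were above 0 in either treatment (64.9%), against 47.9% of all genes under H2O2 and 50.6% in untreated cultures. These medians each rest on 1 pair. Without H2O2 replicate 2 the H2O2 median was -0.015, and without untreated replicate 2 the untreated median was -0.0019.

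The 95% intervals are limma's, which draws the spread of each gene towards that of all genes, and are not adjusted for the number of genes. For a gene of wide spread, such as HSP82, the interval is narrower than its own pairs alone would give. For a steady gene, such as CCT4, it is wider. The intervals are not a limit of detection, since SSZ1 and CUR1 had intervals above 0 for the mean of both treatments and neither passed. The interval lay wholly between -0.2 and 0.2 for 33 of 37 members under H2O2, for 33 in untreated cultures and for 30 in the difference. The widest bound for a strain ratio was 0.27 under H2O2 and 0.29 in untreated cultures, both for HSP82 and equal to 1.20-fold and 1.22-fold. For the difference between treatments the widest bound was 0.36, for SSA1, which is 1.28-fold.

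**Figure D1:**
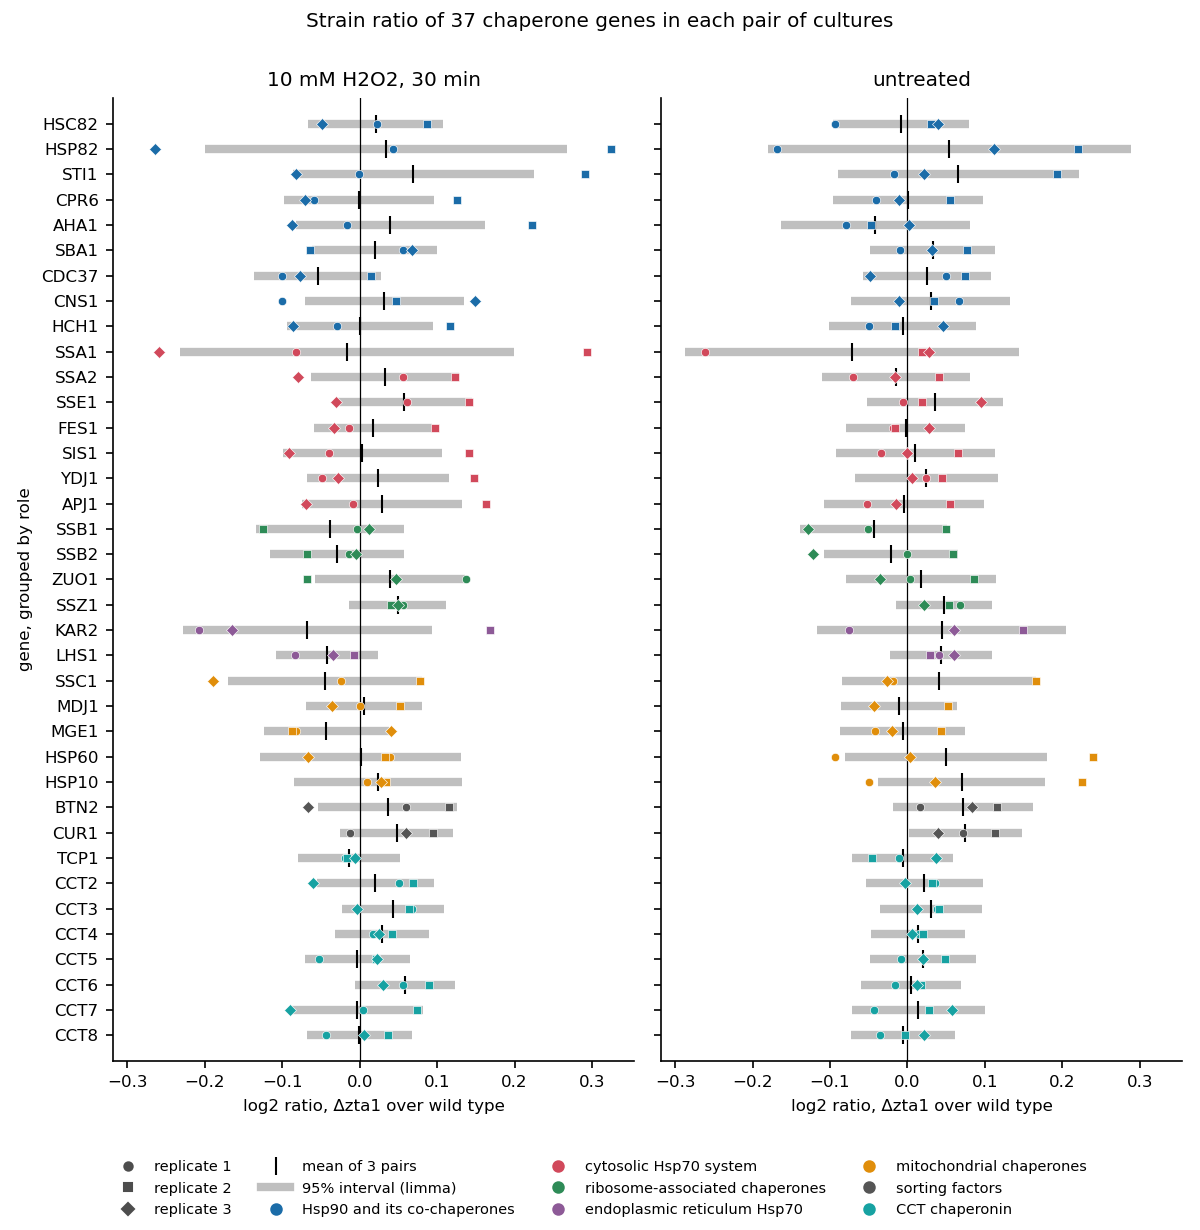
Log2 ratio of ∆zta1 over wild type (horizontal axis) for 37 chaperone genes (vertical axis, coloured by role), with H2O2 on the left and untreated cultures on the right. Points are pairs of cultures, ticks are means of 3 pairs and grey bars are limma's 95% intervals, 37 of which hold 0 under H2O2 and 36 in untreated cultures.

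Hsp90 and its co-chaperones, the largest of the 7 role groups with 9 genes, held the member with the widest spread between pairs. HSP82, the heat-inducible copy of cytosolic Hsp90, read 0.043, 0.32 and -0.26 in the H2O2 pairs and -0.17, 0.22 and 0.11 in the untreated pairs. The pairs of either treatment lay on both sides of 0 and overlapped. Its mean was 0.034 ± 0.29 under H2O2 and 0.054 ± 0.20 in untreated cultures (SD, n = 3 each), and the SD between pairs, pooled over both treatments, was 0.252. Only 74 of 5594 genes had a larger one.

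STI1, which bridges Hsp70 and Hsp90 to hand over clients, had the highest mean ratio of all members under H2O2 and over both treatments. It read -0.00061, 0.29 and -0.083 in the H2O2 pairs, with -0.017, 0.19 and 0.022 in untreated cultures. In either treatment replicate 2 was far above the other pairs, and the mean of 0.068 over both treatments had an interval of -0.042 to 0.18 (limma adjusted p = 0.657). AHA1, the activator of the Hsp90 ATPase, read -0.016, 0.22 and -0.087 under H2O2, with replicate 2 high again, and -0.079, -0.047 and 0.0021 in untreated cultures. Its difference between treatments, 0.081, was the highest of the members and had an interval of -0.091 to 0.25.

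CDC37, which brings protein kinases to Hsp90, was the lowest of this group under H2O2. It read -0.10, 0.014 and -0.077 in the H2O2 pairs and 0.050, 0.074 and -0.049 in the untreated pairs, and the treatments overlapped. The difference of -0.079 had a limma adjusted p of 0.999. CPR6, a peptidyl-prolyl isomerase on Hsp90, HCH1, a relative of AHA1, CNS1, an essential Hsp90 and Hsp70 adaptor, and SBA1, the p23 protein that slows the Hsp90 cycle, had mean ratios between -0.0063 and 0.033 in both treatments.

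In the cytosolic Hsp70 system, SSA1 varied most between pairs. SSA1, a major cytosolic Hsp70, read -0.082, 0.29 and -0.26 in the H2O2 pairs and -0.26, 0.019 and 0.028 in the untreated pairs. Untreated replicate 1 and H2O2 replicate 3 were low by nearly the same amount, and H2O2 replicate 2 was high. The mean was -0.016 ± 0.28 under H2O2 and -0.072 ± 0.16 in untreated cultures (SD, n = 3 each), and 98 genes had a larger pooled SD between pairs than its 0.231. The difference between treatments was 0.055, with an interval of -0.25 to 0.36.

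All 7 genes of this system had their highest H2O2 value in replicate 2, against 27.6% of all genes. The lowest H2O2 value was in replicate 3 for 6 of 7, against 37% of all genes. The J protein YDJ1 read -0.049, 0.15 and -0.028 under H2O2, the J protein SIS1 -0.039, 0.14 and -0.091, and the J protein APJ1 -0.0088, 0.16 and -0.069. SSE1, the Hsp110 exchange factor, was the highest of the group in both treatments. Its pairs were 0.061, 0.14 and -0.030 under H2O2 and -0.0061, 0.018 and 0.095 in untreated cultures, with a mean over both of 0.047 (limma adjusted p = 0.607). FES1, another exchange factor, had means of 0.017 and -0.0022.

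The ribosome-associated chaperones, which meet the chain as it leaves the ribosome, ran against that order under H2O2. SSB1 and SSB2 are the ribosome-bound Hsp70 proteins, and ZUO1 and SSZ1 form the complex that activates them. All 4 had their lowest H2O2 value in replicate 2 (32.1% of all genes did), the pair in which the 7 cytosolic Hsp70 genes were highest. All 4 had their lowest untreated value in replicate 3, against 29.6% of all genes. Untreated replicate 2 was the highest untreated pair for 3 of 4, as for 4 of 7 cytosolic Hsp70 genes, against 36.3% of all genes. ZUO1 read 0.14, -0.067 and 0.047 under H2O2 and 0.0030, 0.086 and -0.035 in untreated cultures. SSB1 was the lowest of the group in either treatment, with -0.0035, -0.12 and 0.012 under H2O2 and -0.051, 0.049 and -0.13 in untreated cultures.

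SSZ1, an unusual Hsp70 that acts with the J protein ZUO1, was the steadiest of these 4 genes. It read 0.056, 0.041 and 0.049 in the H2O2 pairs and 0.068, 0.053 and 0.022 in the untreated pairs. All 6 pairs were above 0, and 5506 genes had a larger pooled SD between pairs than its 0.0175. The mean of 0.048 had an interval of 0.0044 to 0.092 and an adjusted p in limma of 0.507. Agreement in sign over all 6 pairs was seen in 2 of 37 members, SSZ1 and CCT4 (5.41%), against 6.83% of all genes.

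In the endoplasmic reticulum, KAR2 and LHS1 had the lowest differences between treatments together with the mitochondrial SSC1. KAR2, the Hsp70 known as BiP, read -0.21, 0.17 and -0.17 in the H2O2 pairs and -0.076, 0.15 and 0.060 in the untreated pairs. The treatments overlapped, and replicate 2 was the highest pair in each. Its difference of -0.11 was the lowest of the members and had an interval of -0.34 to 0.11 (limma adjusted p = 0.999).

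LHS1, the exchange factor of KAR2, varied far less. It read -0.083, -0.0075 and -0.035 under H2O2 and 0.040, 0.029 and 0.060 in untreated cultures. Every H2O2 pair was below 0 and below every untreated pair, and the difference was -0.085 with an interval of -0.18 to 0.0076 (limma adjusted p = 0.999). CCT6 was the only other member whose treatments did not overlap. These 2 of 37 members are 5.41%, against 5.54% of all genes.

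Among the mitochondrial chaperones, untreated replicate 2 was the highest untreated pair for 5 of 5 genes, against 36.3% of all genes. HSP60, the chaperonin of the matrix, read 0.039, 0.033 and -0.067 in the H2O2 pairs and -0.094, 0.24 and 0.0034 in the untreated pairs. HSP10, its lid, read 0.0094, 0.034 and 0.028 in the H2O2 pairs and -0.050, 0.22 and 0.036 in the untreated pairs. In both genes the untreated mean, 0.050 for HSP60 and 0.070 for HSP10, came mostly from that 1 pair.

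SSC1, the mitochondrial Hsp70 that pulls proteins through the import channel, had pairs at -0.024, 0.078 and -0.19 under H2O2 and at -0.019, 0.17 and -0.026 in untreated cultures. It was the lowest of the group under H2O2, at -0.045 ± 0.14 (SD, n = 3), and its difference between treatments of -0.086 had an interval of -0.26 to 0.092. Its J protein MDJ1 and its exchange factor MGE1 had means of 0.0057 and -0.043 under H2O2 and -0.011 and -0.0063 in untreated cultures.

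The sorting factors BTN2 and CUR1, which steer misfolded proteins to deposits in the cell, were the highest members in untreated cultures. CUR1 read -0.012, 0.095 and 0.060 in the H2O2 pairs and 0.072, 0.11 and 0.039 in the untreated pairs. All but 1 of its 6 pairs were above 0, and its untreated mean of 0.075 ± 0.037 (SD, n = 3) had a limma adjusted p of 0.999. Over both treatments the mean of CUR1 was 0.061, with an interval of 0.0094 to 0.11. BTN2 read 0.059, 0.11 and -0.066 in the H2O2 pairs and 0.016, 0.12 and 0.084 in the untreated pairs, again with 5 of 6 pairs above 0. Its mean over both treatments was 0.054 (limma adjusted p = 0.584).

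The 8 subunits of the CCT chaperonin, the cytosolic chamber that folds actin and tubulin, varied little between the strains and between pairs. Their means ran from -0.014 for TCP1 to 0.059 for CCT6 under H2O2 and from -0.0063 for TCP1 to 0.030 for CCT3 in untreated cultures. No subunit was more than 0.1 from 0 in any of the 6 pairs. The bounds of their intervals reached at most 0.12 under H2O2 (CCT6, 1.09-fold) and at most 0.10 in untreated cultures (CCT7, 1.07-fold).

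CCT6 had the smallest p of all members under H2O2. Its pairs were 0.056, 0.090 and 0.030 under H2O2 and -0.016, 0.018 and 0.012 in untreated cultures. Every H2O2 pair was above every untreated pair, with a mean under H2O2 of 0.059 ± 0.030 (SD, n = 3; limma adjusted p = 0.613). The difference of 0.054 had an interval of -0.037 to 0.14.

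CCT4 stayed between 0.0059 and 0.042 in all 6 pairs, and 5586 genes had a larger pooled SD between pairs than its 0.0101. CCT3 read 0.067, 0.063 and -0.0033 under H2O2 and 0.038, 0.041 and 0.012 in untreated cultures, so 5 of 6 pairs were above 0. TCP1, the lowest subunit, read -0.020, -0.016 and -0.0060 under H2O2, all below 0, and -0.011, -0.046 and 0.037 in untreated cultures. CCT2, CCT5, CCT7 and CCT8 had means between -0.0056 and 0.022 in both treatments.

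**Figure D2:**
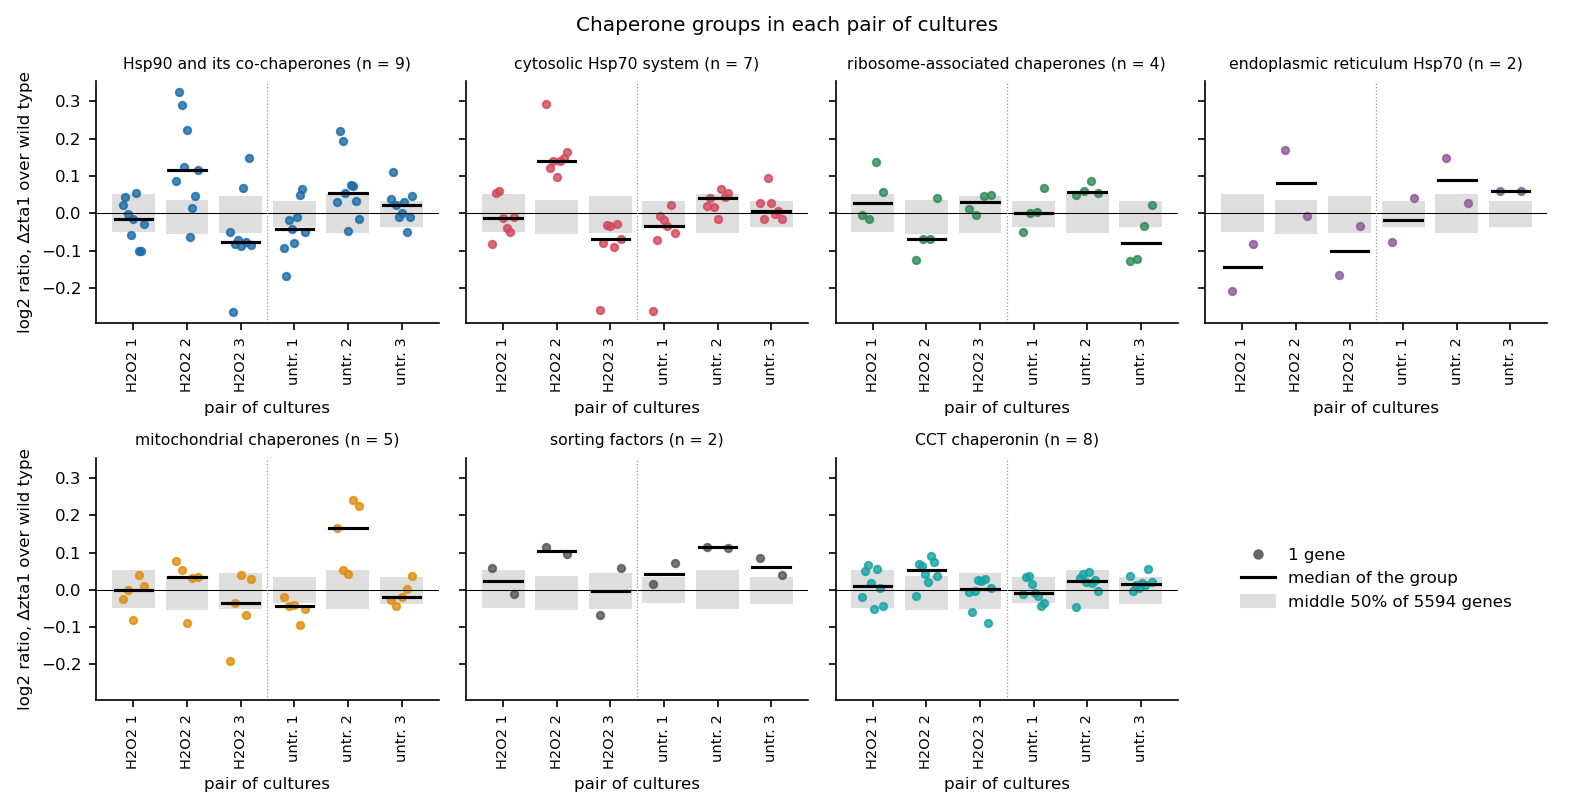
Log2 ratio of ∆zta1 over wild type (vertical axis) in each pair of cultures (horizontal axis) for the 7 role groups. Points are genes, black lines are group medians and grey boxes are the middle 50% of all 5594 genes. The cytosolic Hsp70 median is 0.14 in H2O2 replicate 2 and -0.069 in H2O2 replicate 3, while the CCT medians stay between -0.0097 and 0.053.

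Most chaperone ratios differed more between pairs of the same treatment than their means differed from 0. The size of the mean was below the pooled SD between pairs for 31 of 37 members under H2O2 and for 32 in untreated cultures. The same count was not made over all genes, so it does not set these genes apart. The median over the 37 members was -0.0088, 0.074 and -0.035 in the H2O2 pairs and -0.018, 0.048 and 0.012 in the untreated pairs. The same median over all genes lay between -0.0034 and 0.0023 in every pair. Members above 0 numbered 16, 30 and 12 in the H2O2 pairs and 12, 32 and 24 in the untreated pairs, of 37 each. As shares these were 43.2%, 81.1% and 32.4% under H2O2, against 51.3%, 47.7% and 47.9% of all genes. In untreated cultures they were 32.4%, 86.5% and 64.9%, against 49.7%, 50.5% and 48.5%.

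Whether same-numbered pairs of the treatments share a day or batch is not given in the sources used here. Replicate 2 was the high pair in either treatment. It was the highest of 3 for 26 of 37 members under H2O2 (70.3%, against 27.6% of all genes) and for 24 in untreated cultures (64.9%, against 36.3%). H2O2 replicate 3 was the lowest pair for 20 members (54.1%, against 37% of all genes) and untreated replicate 1 for 23 (62.2%, against 33%).

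The order of the groups was not the same in every pair. In H2O2 replicate 2 the median was 0.12 for Hsp90 and its co-chaperones, 0.14 for the cytosolic Hsp70 system and -0.068 for the ribosome-associated chaperones. In H2O2 replicate 3 these medians were -0.077, -0.069 and 0.030. In untreated replicate 2 the highest median was that of the mitochondrial chaperones, at 0.17. These are descriptions of 6 pairs, with no test.

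**Figure D3:**
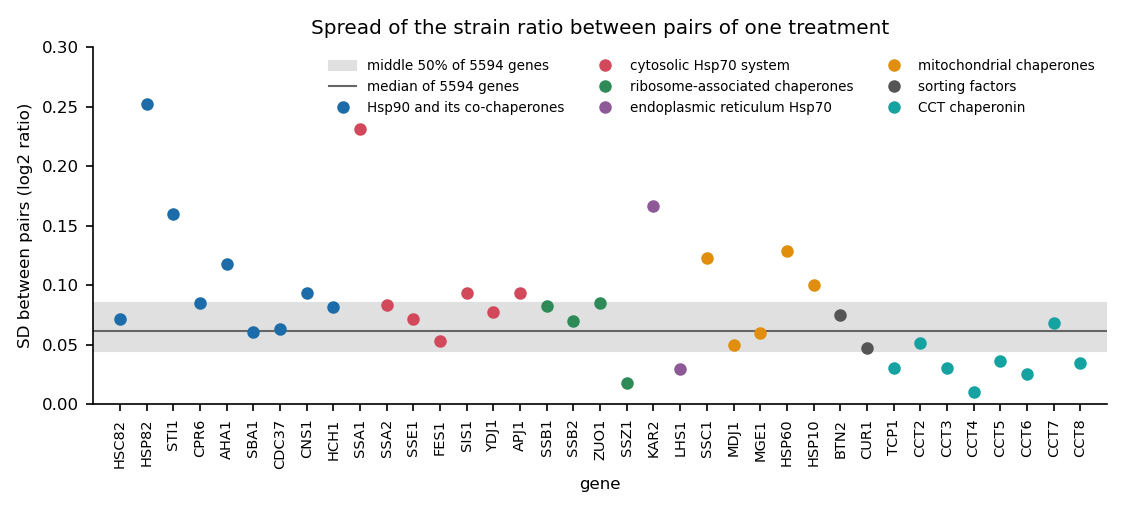
SD of the log2 ratio between pairs of the same treatment (vertical axis, pooled over H2O2 and untreated pairs) for each chaperone gene (horizontal axis), with the median of all genes as a line and their middle 50% as a band. HSP82 (0.252) and SSA1 (0.231) lie far above the band, and 7 of 8 CCT subunits lie at or below the median of all genes.

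The spread between pairs set these genes apart from each other. The median SD was 0.0713 over the 37 members and 0.0611 over all genes, whose quartiles were 0.0444 and 0.0847. After HSP82 and SSA1 came KAR2 at 0.166, STI1 at 0.160, HSP60 at 0.129, SSC1 at 0.123 and AHA1 at 0.118. The 8 CCT subunits had a median of 0.0325, and the largest of them was CCT7 at 0.0684.

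Close copies of the same chaperone did not always read alike. HSC82, the constitutive Hsp90, read 0.023, 0.088 and -0.049 in the H2O2 pairs and -0.094, 0.030 and 0.039 in the untreated pairs. It had the sign of HSP82 in all 6 pairs but was closer to 0 in each. SSA2, the constitutive partner of SSA1, read 0.055, 0.12 and -0.080 under H2O2 and -0.070, 0.041 and -0.015 in untreated cultures.

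SSA2 was nearer to 0 than SSA1 in 5 of 6 pairs, and H2O2 replicate 1 and untreated replicate 3 gave these genes opposite signs. SSB2 read -0.014, -0.068 and -0.0049 in the H2O2 pairs and 3.2e-05, 0.059 and -0.12 in the untreated pairs. SSB1 and SSB2 differed by at most 0.057 in any pair. The copies of each pair of genes are close in sequence, and how far their probes share signal was not tested.

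**Figure D4:**
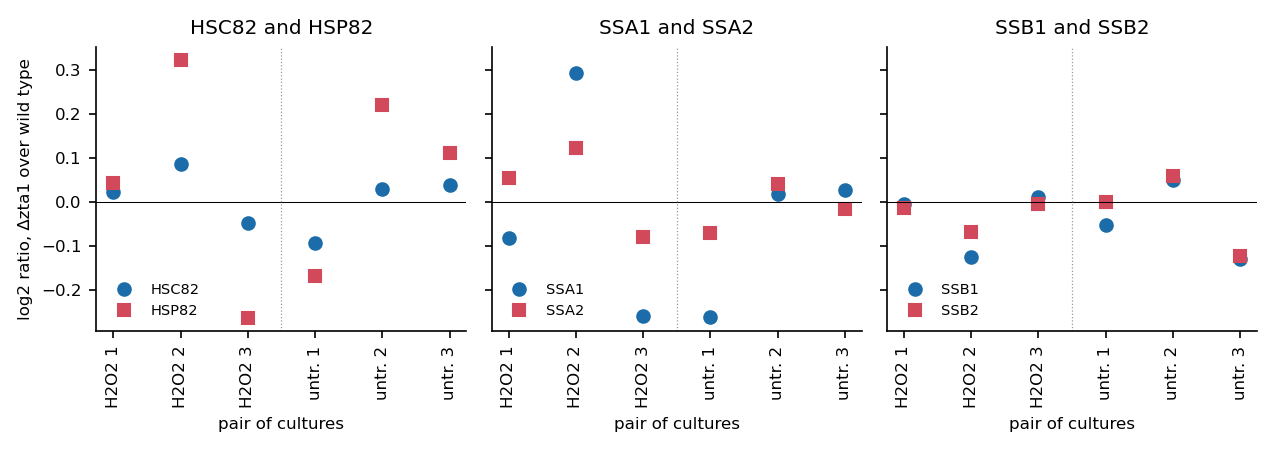
Log2 ratio of ∆zta1 over wild type (vertical axis) in each pair of cultures (horizontal axis) for 3 pairs of closely related chaperone genes. HSP82 reaches 0.32 and -0.26 where HSC82 stays within 0.1 of 0, and SSB1 and SSB2 lie within 0.057 of each other.

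For most of these genes, as for most genes on the arrays, the ratio differed more with the dye than with the strain. The dye part of a ratio was taken as the value with ∆zta1 in Cy5 minus the value with ∆zta1 in Cy3, divided by 2, so that a negative one marks a transcript that read lower in Cy5 whichever strain carried it. It passed limma's test in 28 of 37 members (75.7%) over the 6 pairs, against 66.3% of all genes, a test added after the data had been seen. Its size exceeded 0.2 in 8 of 37 members (21.6%), against 3.34% of all genes, and it exceeded the strain ratio in 29 of 37 members in either treatment. That is 78.4%, against 64.6% of all genes under H2O2 and 72.4% in untreated cultures.

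The ribosome-associated chaperones held 3 of these 8 genes. SSB1 averaged -0.63 with ∆zta1 in Cy5 (6 arrays, -0.85 to -0.48) and 0.55 with ∆zta1 in Cy3 (0.45 to 0.60), a dye part of -0.59. SSB2 had a dye part of -0.30 and ZUO1 of -0.45, while SSZ1 had 0.010, did not pass and was above 0 on all 12 arrays. In SSB1, SSB2 and ZUO1 the arrays of the 2 dye orientations did not overlap.

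In the Hsp90 group SBA1 had a dye part of -0.56 and HSC82 of -0.47, while HSP82, its close copy, had -0.058. SSA2 had -0.35, against -0.077 for SSA1, and HSP60 had -0.22. CCT4 went the other way, at 0.23. The dye orientations did not overlap in 15 of 37 members (40.5%), against 26.0% of all genes. Averaging the 2 arrays of a pair removes a dye part that is equal on both.

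**Figure D5:**
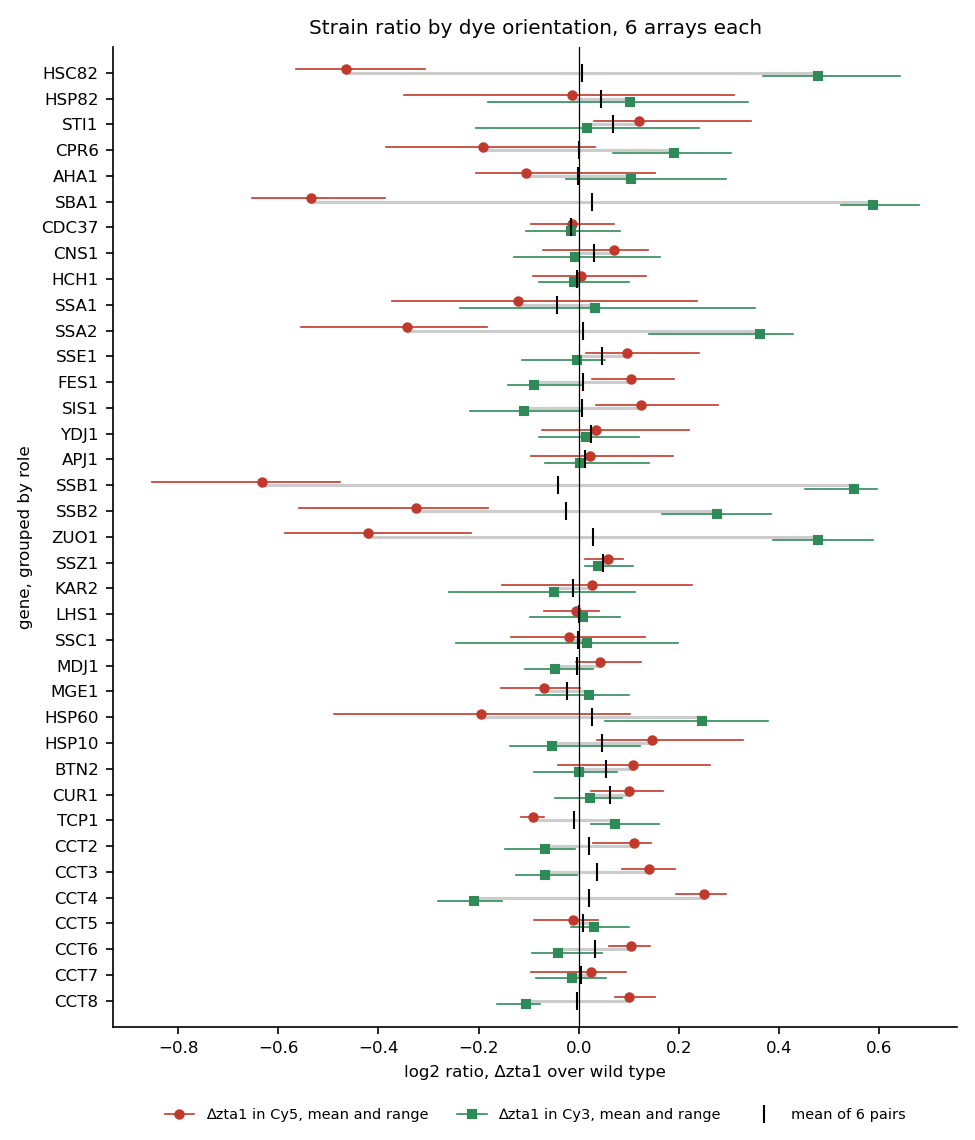
Log2 ratio of ∆zta1 over wild type (horizontal axis) for 37 chaperone genes (vertical axis), as mean and range of the 6 arrays with ∆zta1 in Cy5 and of the 6 with ∆zta1 in Cy3; black ticks are the mean of 6 pairs. SSB1 lies at -0.63 and 0.55, and 8 genes have a dye part over 0.2 in size.

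The other genes of protein folding did not pass either. Of 52 further chaperone genes, among them the heat-inducible Hsp70 copies, the small heat shock proteins, prefoldin and oxidative folding in the endoplasmic reticulum, 0 passed limma's test in any of the 4 comparisons. At an unadjusted p under 0.05 there were 3 under H2O2 (5.77%, against 8.29% of all genes), 0 in untreated cultures, 0 for the difference and 2 for the mean (3.85%, against 9.46%). Their median was -0.011 under H2O2 and 0.0050 in untreated cultures.

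JJJ1, a J protein that works in the maturation of the large ribosomal subunit, was the highest of them under H2O2. It read 0.12, 0.091 and 0.14 in the H2O2 pairs and 0.053, 0.059 and 0.056 in the untreated pairs. All 6 pairs were above 0 and every H2O2 pair was above every untreated pair. Of all genes, 6.83% agreed in sign over all 6 pairs and 5.54% had treatments that did not overlap. The adjusted p of JJJ1 in limma was 0.423 under H2O2 and 0.265 for the mean. Its sign turned with the dye. With ∆zta1 in Cy5 it read 0.26 under H2O2 and 0.21 in untreated cultures, and with ∆zta1 in Cy3 -0.031 and -0.095. In a fit to all 12 arrays with a dye term, which counts the 2 arrays of a pair as separate observations with the pair as a random block, its mean of 0.085 ± 0.017 (SE) passed, with a limma adjusted p of 0.0356.

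After JJJ1, the highest under H2O2 were JJJ3, a J protein of diphthamide synthesis, at 0.097 ± 0.15, and the prefoldin subunit GIM3 at 0.065 ± 0.078 (SD, n = 3 each). The lowest were the small heat shock protein HSP42 at -0.12 ± 0.22, the thiol oxidase ERO1 at -0.12 ± 0.19 and the disulfide isomerase MPD1 at -0.11 ± 0.071. In untreated cultures the highest were GIM3 at 0.065, JJJ1 at 0.056 and the Hsp90 phosphatase PPT1 at 0.051. The lowest there were HSP31 at -0.070, the heat-inducible Hsp70 SSA4 at -0.060 and ERO1 at -0.056.

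The members lie on 14 chromosomes, and an effect of position on their values was not tested. On the chromosome of ZTA1, FES1 lies 55 protein-coding genes away and CNS1 107, in the gene order of RefSeq.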

How the data were processed

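The authors deposited 1 log2 ratio per probe and array; limma is the only program in the submitters' processing notes, without a version. How the background was corrected, how arrays were normalised, and the ratios' scale and sign are not given in the sources used here. Values were read as log2, limma's scale, and as ∆zta1 over wild type on all 12 arrays, from the titles and from ZTA1. In either treatment the description of 1 array of replicate 3 says replicate 2; titles were used. Column medians lay between -0.0172 and 0.0165, and no value was missing. Of 6256 probes, 5620 had 1 gene in the platform annotation and 636 stayed unnamed; probes of a gene were averaged (25 genes), leaving 5594 genes. Intensities were not used here, so signal over background is unknown and the number of arrays limits precision.

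The 2 arrays of a pair were averaged. The 6 resulting values entered limma 3.58.1 (lmFit, eBayes; R 4.3.3), with a mean for each treatment, 4 residual degrees of freedom and two-sided tests, adjusted (Benjamini-Hochberg) over all genes. The p-values measure the spread between pairs. The dye part was fitted as 1 mean over the 6 pairs. The fit was tested on simulated data. Named genes are, per comparison, the 5 members with the smallest p, the 3 highest and the 3 lowest, the extremes of each role group, the 3 pairs of close copies and, of the other chaperone genes, those passing and the 3 highest and 3 lowest per treatment. The members, lists and tests were chosen with earlier results of these data known. Promoter and protein sequences were not used here. Alternatives were centring, scaling, each dye orientation alone, all 12 arrays with a dye term, robust and weighted fits, each treatment alone, single probes, the replicate block, unadjusted p and each pair left out.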

Additional observations from a re-analysis of the deposited data

How the results depend on the processing

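The 37 members gave 0 calls in all 4 comparisons when arrays were centred, or centred and scaled, in the fit to 12 arrays with a dye term, in the robust and weighted fits, with each probe alone and with each pair left out. With each treatment fitted alone they gave 0 in both treatments. With the replicate number as a block the calls were also 0, and the medians stayed at 0.0197 under H2O2 and 0.018 in untreated cultures. The deviations of same-numbered pairs correlated at -0.014, 0.031 and -0.27 across genes. Whether such pairs share a day or batch is not given in the sources used here, and these correlations cannot settle it. When pairs were left out in turn, the median ran from -0.0147 to 0.0393 under H2O2 and from -0.00195 to 0.0252 in untreated cultures. In these fits either median was below 0 only without replicate 2 of its treatment, and the dye part passed in 26 to 28 members. The H2O2 median was also below 0, at -0.0056, on the arrays with ∆zta1 in Cy3 alone. Centring or scaling kept the sign of 33 of 37 members under H2O2, 37 in untreated cultures, 35 for the difference and 33 for the mean. Leaving out any 1 pair kept it for 12, 16, 8 and 17.

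Single dye orientations gave other calls, since the dye part then stays in the ratio. With ∆zta1 in Cy5 alone, 9 members passed under H2O2 (24.3%, against 16.6% of all genes), 10 in untreated cultures (27%, against 16.2%) and 19 for the mean (51.4%, against 36.9%), and 6, 5 and 15 of the other chaperone genes. With ∆zta1 in Cy3 alone, 7 (18.9%, against 7.51%), 9 (24.3%, against 10%) and 11 members (29.7%, against 26.4%) and 1, 2 and 10 other chaperone genes passed. Signs turned for 9, 13 and 12 members in Cy5 and for 20, 16 and 19 in Cy3, and those that also passed are named. With ∆zta1 in Cy5 alone they are, under H2O2, HSC82 (-0.45), SBA1 (-0.55), SSA2 (-0.25) and ZUO1 (-0.44). In untreated cultures they are CPR6 (-0.25), SBA1 (-0.52) and ZUO1 (-0.40), and for the mean HSC82 (-0.47), SBA1 (-0.53), SSA2 (-0.34), ZUO1 (-0.42), HSP60 (-0.19) and CCT8 (0.10). With ∆zta1 in Cy3 alone they are, under H2O2, SSB1 (0.53), SSB2 (0.21) and CCT4 (-0.20), and in untreated cultures HSC82 (0.46), SSA2 (0.40), SSB1 (0.57), SSB2 (0.34) and CCT4 (-0.22). For the mean they are CPR6 (0.19), FES1 (-0.090), SSB1 (0.55), SSB2 (0.28) and CCT4 (-0.21).

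Without adjustment of p, 1 member passed in untreated cultures and 2 for the mean, and 3 and 2 of the other chaperone genes under H2O2 and for the mean. The fit to 12 arrays called 1 other chaperone gene, JJJ1, for the mean, and 30 of all genes against 16; the cause was not tested. Over all genes the weighted fit called 28 for the mean, and H2O2 calls were 7 without H2O2 replicate 1 and 6 without H2O2 replicate 3, against 12. Without untreated replicate 2, 3 of all genes passed for the difference, against 0, and none was a member. Single dye orientations called 420 to 2063 of all genes in a treatment or the mean. The 3 pairs per treatment limit the precision.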

Other observations

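Values outside the list were looked at after they had been seen. HSP104, the disaggregase that was left out of the members, read -0.07, 0.21 and -0.28 in the H2O2 pairs and -0.14, 0.16 and 0.04 in the untreated pairs. It was high in replicate 2 and low in H2O2 replicate 3 and untreated replicate 1, as HSP82 was, and did not pass. EGD2, a subunit of the nascent polypeptide-associated complex at the ribosome, had the lowest dye part of the 52 other chaperone genes. Under H2O2 it read -0.69 on arrays that had ∆zta1 in Cy5 and 0.74 on those that had it in Cy3. In untreated cultures these values were -0.69 and 0.69.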
